A study of Homo sapiens with 6 samples.

Results

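The gain of the androgen response was measured as the change between dihydrotestosterone (DHT) and bicalutamide in BicR cells minus the same change in LNCaP cells. It rests on 4 of the series' 6 RNA sequencing libraries, 1 each for BicR under DHT, BicR under bicalutamide, LNCaP under DHT and LNCaP under bicalutamide. Of 21512 genes in the table, the 13885 whose counts averaged 20 or more across all 6 libraries were described; the lowest mean kept was 20 and the highest left out was 19.8. LNCaP is an established human prostate cancer line that responds to androgen. BicR is named in the labels as a prostate cancer line, and they do not say how it was derived. Both lines spent 3 days in phenol red-free medium with 2.5% charcoal-stripped serum, which is poor in steroids, and then 24 h with 10 nM DHT, 1 µM bicalutamide or ethanol vehicle. The ethanol libraries entered the count minimum, the library scaling and the relative gene lengths, and otherwise served only as the alternative to bicalutamide.

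DHT, the most potent natural androgen, turns on androgen signalling, and bicalutamide, a nonsteroidal antiandrogen, blocks it. Androgen signalling acts on DNA at androgen response elements, which are paired half-sites close to AGAACA, and raises or lowers the transcription of nearby genes. In prostate epithelium its known targets include secreted kallikreins, lipid and glycan enzymes, membrane transporters and the cochaperone FKBP5.

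For each gene the response in a line is the difference in log2(CPM + 1), DHT minus bicalutamide, where CPM is counts scaled to the TMM-adjusted library size in the usual CPM unit. The gain is the response in BicR minus the response in LNCaP. At a gain of 1 the ratio of DHT to bicalutamide is 2-fold higher in BicR on this scale. A positive gain can thus come from more induction or from less repression in BicR, and a negative gain from the reverse. Differences of low genes are understated by the added 1. With 1 library per line and treatment no test was possible. A gene was counted past a gain or response of 1 in size, and the printed 95% intervals, exact and conditional on the summed counts, cover counting error only. The labels do not say whether any library repeats or pools cultures.

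Total counts were 42162723 in BicR under DHT, 47185123 in BicR under bicalutamide, 55917016 in LNCaP under DHT and 50871634 in LNCaP under bicalutamide. The prostate luminal markers, 21 of 24 above the count minimum, summed to 16395 and 7331 CPM in BicR under DHT and bicalutamide, and to 13223 and 7213 CPM in LNCaP under the same agents. The basal list (5 of 15 above the minimum) summed to 43.6 to 63.3 CPM in the 4 libraries, the neuroendocrine list (3 of 16) to 63.1 to 117 CPM, the mesenchymal list (16 of 23) to 1609 to 2672 CPM, the immune list (5 of 16) to 21.8 to 72.5 CPM and the endothelial list (2 of 11) to 5.39 to 12.5 CPM. PTPRC, MS4A1 and NKG7 (immune), CDH5 and CLDN5 (endothelial), and GRP and PCSK1 (neuroendocrine) were at 0 in all 6 libraries, and so was the luminal marker NPY. Other members were detected, among them the immune CD68 (473 to 1426 counts) and CD74 (81 to 1072), the endothelial VWF (150 to 452) and the neuroendocrine ENO2 (2512 to 5989). In these bulk libraries, fewer cells of a kind and less RNA per cell cannot be told apart.

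A promoter window, 250 bases before to 50 after a RefSeq transcript start (GRCh38.p14), is shown for 4 genes picked as examples. FKBP5 and TTN had induction larger in BicR, SI had repression larger in BicR, and KLK3, which encodes prostate-specific antigen, responded about alike. The capitals mark the half-site AGAACA or its reverse complement TGTTCT, searched on both strands. The windows are chr6:35728534-35728833 (minus strand) for FKBP5, chr2:178807374-178807673 (minus strand) for TTN, chr3:165078447-165078746 (minus strand) for SI and chr19:50854665-50854964 (plus strand) for KLK3. FKBP5 has a second annotated start, whose window held no match.
FKBP5: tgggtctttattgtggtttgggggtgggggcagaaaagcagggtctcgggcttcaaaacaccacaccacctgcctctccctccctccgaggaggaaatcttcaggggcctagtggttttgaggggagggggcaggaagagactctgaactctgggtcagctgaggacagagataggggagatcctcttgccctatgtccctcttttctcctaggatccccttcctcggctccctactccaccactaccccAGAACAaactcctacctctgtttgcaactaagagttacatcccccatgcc
TTN: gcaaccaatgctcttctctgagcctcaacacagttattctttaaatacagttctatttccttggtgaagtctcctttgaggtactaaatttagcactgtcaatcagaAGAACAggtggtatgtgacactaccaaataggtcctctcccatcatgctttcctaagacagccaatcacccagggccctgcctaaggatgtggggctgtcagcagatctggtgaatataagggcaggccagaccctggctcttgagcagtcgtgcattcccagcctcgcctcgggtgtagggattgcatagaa
SI: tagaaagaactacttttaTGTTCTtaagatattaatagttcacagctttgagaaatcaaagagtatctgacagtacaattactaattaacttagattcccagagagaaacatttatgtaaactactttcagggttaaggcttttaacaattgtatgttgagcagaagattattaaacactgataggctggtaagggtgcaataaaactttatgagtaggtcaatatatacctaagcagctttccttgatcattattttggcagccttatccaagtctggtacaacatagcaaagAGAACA
KLK3: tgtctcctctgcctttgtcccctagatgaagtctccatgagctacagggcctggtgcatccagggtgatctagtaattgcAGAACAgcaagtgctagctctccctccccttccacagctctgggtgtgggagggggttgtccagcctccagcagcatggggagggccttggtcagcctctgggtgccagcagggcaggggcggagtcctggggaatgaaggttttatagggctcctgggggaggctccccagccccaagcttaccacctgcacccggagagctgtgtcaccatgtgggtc

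In KLK3 the match starts at position -170 from the transcript start, within the proximal androgen response element for which this promoter is known. In TTN it starts at -143, in FKBP5 at 0 and in SI at -232 and 44. Of 35116 windows in the RefSeq table, 14.8% held a match, and among measured genes with a window, 1233 of 9380 (13.1%) had one in any window. The share was 15 of 81 genes (18.5%) with induction larger in BicR, 7 of 50 with repression larger, 6 of 78 with induction smaller and 3 of 46 with repression smaller. It was 1 of 20 for genes that responded alike. A gene can have several windows, and more windows give more room for a match. Counted by window, a match was held by 16 of 146 (11.0%) with induction larger, against 1390 of 13848 (10.0%) for measured genes. A match describes these letters only, and most genes of every class had none in this window. The genes shown above were picked and each held a match, so they do not represent their classes.

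The response to DHT was larger in BicR for many genes known as androgen-induced, and smaller in BicR for other genes, mostly short ones where induction was smaller and mostly long ones where repression was smaller. With ethanol in place of bicalutamide 96 of 132 genes with induction larger and 46 of 70 with repression larger were found again, but 8 of 126 with induction smaller and 5 of 71 with repression smaller. The gain reached 1 or more in 359 of 13885 genes (2.59%) and -1 or less in 400 (2.88%). Its median over all genes was 0.01 with a standard deviation of 0.53 across genes, and 68.4% of genes lay between -0.5 and 0.5. In BicR, 198 genes (1.43%) were higher and 144 (1.04%) lower under DHT than under bicalutamide by 2-fold or more. In LNCaP these were 219 (1.58%) and 124 (0.893%), and few genes did so in both lines the same way, 14 and 21 higher and 3 and 8 lower, counted by whether the gain also reached 1 or not. With total counts as library size the split was 181 higher and 163 lower in BicR and 158 higher and 185 lower in LNCaP, so which direction was commoner in LNCaP depends on the scaling. The genes nearest the thresholds had gains of 1.001 and -1.001 just inside and 0.9994 and -0.9988 just outside.

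Sorted by the responses behind it, the gain fell into 5 kinds. Induction was larger in BicR for 132 genes (0.951%), of which 118 reached 2-fold in BicR alone and 14 in both lines. Repression was larger in BicR for 70 genes (0.504%), 67 of them in BicR alone. Induction was smaller in BicR for 126 genes (0.907%) and repression smaller for 71 (0.511%), and all of these reached 2-fold in LNCaP alone. A single gene, HOXC9, passed 2-fold in opposite directions. Another 29 genes differed at least 2-fold the same way in both lines with a gain under 1 in size, 21 higher and 8 lower. In 156 further genes with a higher gain and 203 with a lower one, neither response reached 2-fold.

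**Figure D1:**
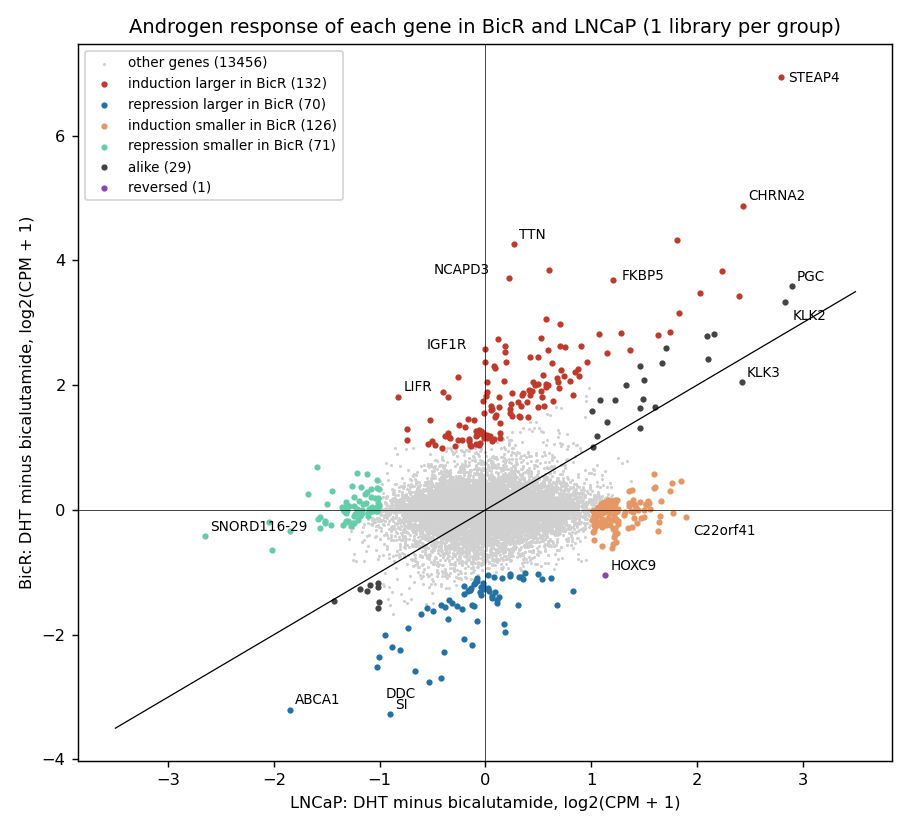
Each point is 1 of 13885 genes, with its LNCaP response on the x axis and its BicR response on the y axis, both DHT minus bicalutamide in log2(CPM + 1), and the diagonal marks equal responses. The 132 red genes, induction larger in BicR, extend up to STEAP4 at 6.95 in BicR and 2.79 in LNCaP, while the 126 orange and 71 green genes, which reached 2-fold in LNCaP alone, lie along the horizontal line of no BicR response.

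The lines differed mainly under DHT in 3 of the 4 larger kinds. For genes with induction larger in BicR, the median BicR minus LNCaP difference was 1.40 under DHT and -0.04 under bicalutamide. Under DHT 114 of the 132 were at least 2-fold higher in BicR, and under bicalutamide 126 were less than 2-fold apart between the lines. Of all 13885 genes, 13614 lay that close under bicalutamide, so such closeness was common and not a trait of this kind. Under DHT the BicR level exceeded the LNCaP level by 2-fold or more in 390 of all genes, and fell short by as much in 652. Repression larger in BicR gave medians of -1.48 under DHT and -0.04 under bicalutamide, with 52 of 70 genes at least 2-fold lower in BicR under DHT. Induction smaller in BicR gave -1.28 under DHT and 0.01 under bicalutamide, with 102 of 126 genes lower. Repression smaller in BicR was split over both, with 0.87 under DHT and -0.38 under bicalutamide.

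**Figure D2:**
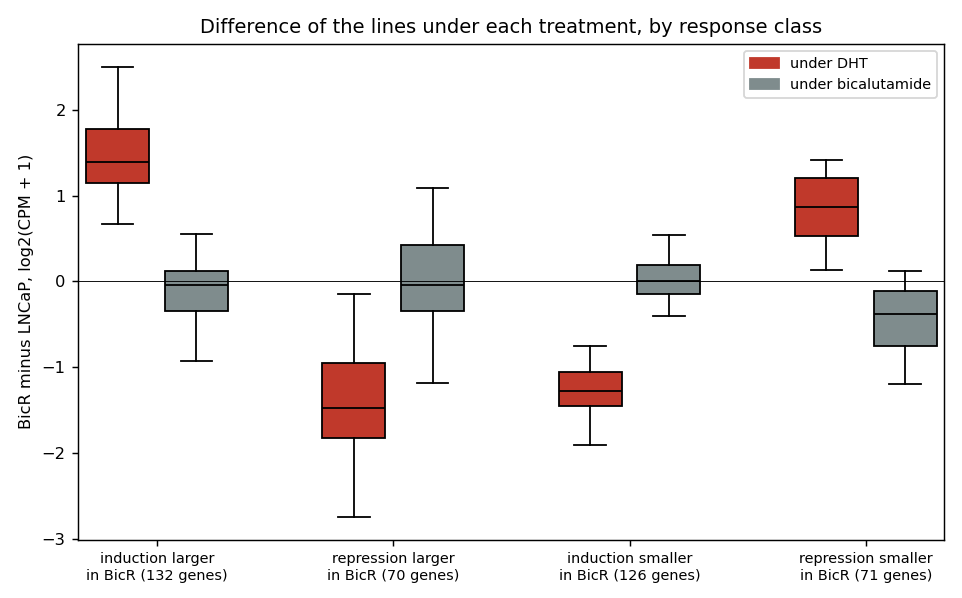
Boxes show the median and quartiles, and whiskers the 5th and 95th percentile, of the BicR minus LNCaP difference in log2(CPM + 1) under DHT (red) and under bicalutamide (grey) for the genes of each response class. Under bicalutamide the medians lie between -0.38 and 0.01, and under DHT they lie at 1.40, -1.48, -1.28 and 0.87, in the order of the x axis.

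Among genes induced at least 2-fold in both lines, STEAP4, a metalloreductase of the cell surface and endosomes, had the highest gain of all genes. It had 135 CPM under DHT and 0.102 CPM under bicalutamide in BicR, against 6.60 CPM under DHT and 0.0958 CPM under bicalutamide in LNCaP. Both bicalutamide libraries held only 5 counts of it, so the lines were alike near 0 there and far apart under DHT, with a gain of 4.16. DHT over bicalutamide was 1328-fold (95% interval 569 to 4093) in BicR and 68.8-fold (95% interval 29.2 to 213) in LNCaP, and the ratio of these folds was 19.3 (95% interval 4.42 to 84.3). FKBP5, the HSP90 cochaperone that takes part in steroid receptor complexes, had 712 CPM under DHT and 54.2 CPM under bicalutamide in BicR, against 132 CPM under DHT and 56.7 CPM under bicalutamide in LNCaP. Its levels under bicalutamide were nearly equal, and its gain was 2.49 with a ratio of folds of 5.65 (95% interval 5.32 to 5.99). CHRNA2, a nicotinic acetylcholine receptor subunit, had 104 CPM under DHT and 2.58 CPM under bicalutamide in BicR, against 9.10 CPM under DHT and 0.863 CPM under bicalutamide in LNCaP, a gain of 2.44. GREB1, a chromatin-bound cofactor known from studies of the oestrogen response, had 294 CPM under DHT and 40.5 CPM under bicalutamide in BicR, against 36.6 CPM under DHT and 16.8 CPM under bicalutamide in LNCaP. Its gain was 1.75, and BicR was the higher line under both agents. TRIM49L, one of several near-identical TRIM genes whose reads cannot be assigned with certainty, had 58.9 CPM under DHT and 1.97 CPM under bicalutamide in BicR, against 6.87 CPM under DHT and 1.25 CPM under bicalutamide in LNCaP, a gain of 2.52.

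The remaining 9 genes induced in both lines with a larger response in BicR, from CENPN down, had lower gains. They were CENPN (1.59), the transcriptional repressor SNAI2 (1.55), ST6GALNAC1 (1.45), the Hippo cofactor WWTR1 (1.36), the cold-sensing channel TRPM8 (1.33), ZBTB16 (1.20), PMEPA1 (1.18), the potassium channel KCNN2 (1.11) and TMPRSS2 (1.03). CENPN, a centromere protein, had 299.9 CPM under DHT and 20.2 CPM under bicalutamide in BicR, against 69.7 CPM under DHT and 14.0 CPM under bicalutamide in LNCaP. TMPRSS2, the membrane serine protease whose promoter is joined to ETS genes in many prostate cancers, had 1032 CPM under DHT and 95.2 CPM under bicalutamide in BicR, against 495 CPM under DHT and 93.0 CPM under bicalutamide in LNCaP. Its bicalutamide levels matched between the lines, and the ratio of its folds was 2.04 (95% interval 1.95 to 2.13). PMEPA1, a negative regulator of TGF-beta signalling, had 343 CPM under DHT and 48.0 CPM under bicalutamide in BicR, against 145 CPM under DHT and 45.9 CPM under bicalutamide in LNCaP, and the lines again lay close under bicalutamide.

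Among genes that reached 2-fold in BicR alone on the log2(CPM + 1) scale, TTN, which encodes the muscle protein titin, led with a gain of 3.996. It had 19.7 CPM under DHT and 0.0814 CPM under bicalutamide in BicR, against 0.479 CPM under DHT and 0.230 CPM under bicalutamide in LNCaP, so only BicR under DHT stood above 1 CPM. Its counts were 828 and 4 in BicR under DHT and bicalutamide, against 26 and 12 in LNCaP, and the ratio of folds was 116 (95% interval 31.8 to 515). CCDC141, a coiled-coil protein gene that lies beside TTN on chromosome 2, had 588 and 2 counts in BicR under DHT and bicalutamide, against 28 and 0 in LNCaP. Its gain was 3.25, and its fold was 344 (95% interval 94.9 to 2851) in BicR. Against a floor of 3 counts per library, CCDC141 was 230-fold higher in BicR and at least 8.97-fold higher in LNCaP. It thus passed 2-fold in both lines without the added 1, and the interval of the ratio of folds, 0 to 139, holds 1. Without the added 1, 14 of the 118 genes of this kind had LNCaP ratios of 2 or more, TTN among them at 2.08. NCAPD3, a condensin II subunit that compacts chromosomes, had 904 CPM under DHT and 67.5 CPM under bicalutamide in BicR, against 66.5 CPM under DHT and 56.8 CPM under bicalutamide in LNCaP. The other 3 libraries lay together and BicR under DHT stood far above them, with a gain of 3.50 and a ratio of folds of 11.4 (95% interval 10.8 to 12.2). LNCaP under ethanol held 31.8 CPM of NCAPD3, and DHT over ethanol was 2.09-fold (95% interval 1.97 to 2.22) in LNCaP.

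LIFR, the receptor subunit for leukaemia inhibitory factor, had 165 CPM under DHT and 46.2 CPM under bicalutamide in BicR, against 44.7 CPM under DHT and 80.1 CPM under bicalutamide in LNCaP. It was higher under DHT in BicR and lower under DHT in LNCaP, short of 2-fold there, with a gain of 2.65. TNFAIP8, a regulator of apoptosis, had 34.4 CPM under DHT and 4.31 CPM under bicalutamide in BicR, against 8.82 CPM under DHT and 8.07 CPM under bicalutamide in LNCaP, a gain of 2.62. IGF1R, the receptor for insulin-like growth factor 1, had 159 CPM under DHT and 25.6 CPM under bicalutamide in BicR, against 52.0 CPM under DHT and 52.3 CPM under bicalutamide in LNCaP. LNCaP showed the same level under both agents, whereas BicR was at 6.19-fold (95% interval 5.83 to 6.58), and the gain was 2.59. Over the 118 genes of this kind the LNCaP response had a median of 0.13 and ran as low as -0.83. In 34 of them it was at least 0.5 in size, in either direction. For 77 of the 118 the LNCaP response was above 0.

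**Figure D3:**
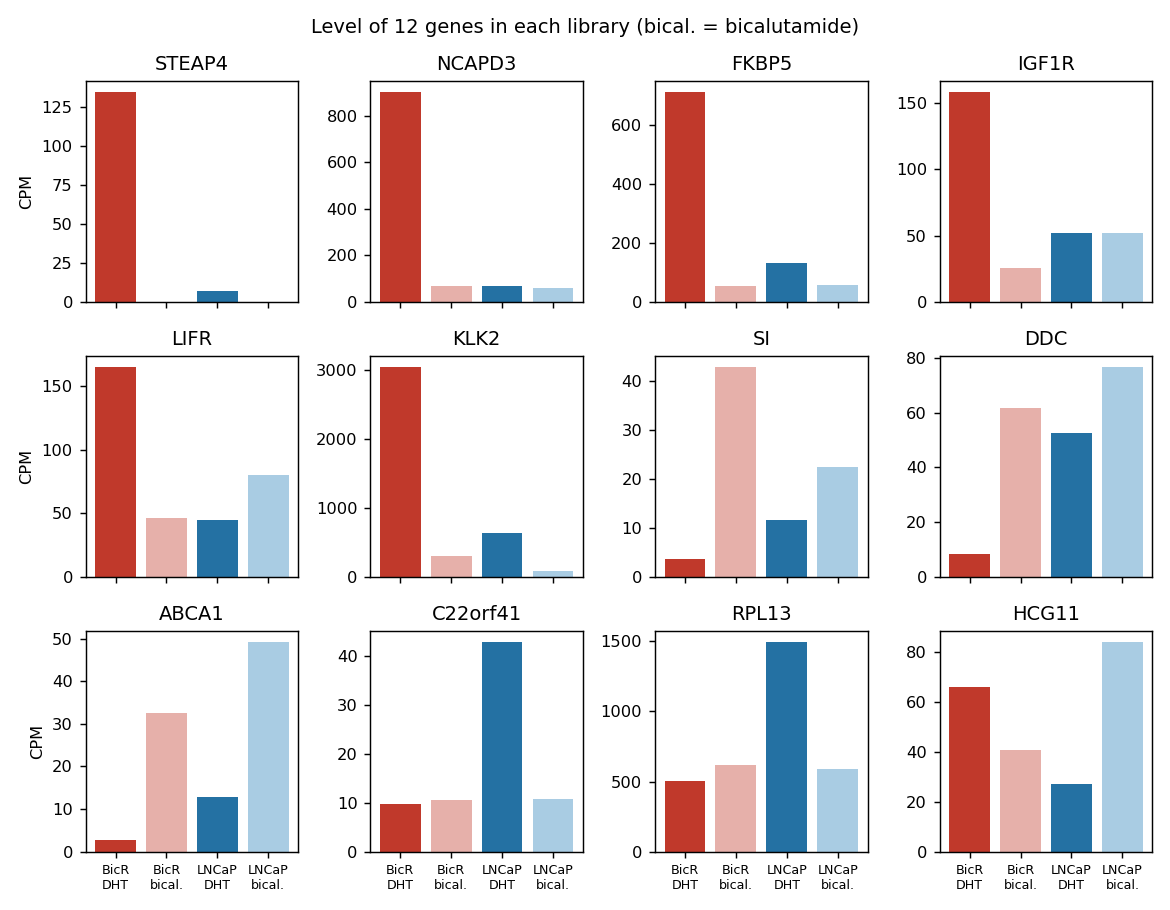
Bars give the level in CPM of 12 genes in each of 4 libraries, BicR under DHT, BicR under bicalutamide, LNCaP under DHT and LNCaP under bicalutamide, each bar being 1 library with no replicate. STEAP4, NCAPD3, FKBP5, IGF1R and LIFR stand out in BicR under DHT, SI, DDC and ABCA1 are lowest there, and C22orf41 and RPL13 stand out in LNCaP under DHT.

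The 6 lists of genes known as androgen-induced, 116 measured genes in all, were drawn up with earlier results of these data known, so their direction is not independent evidence. The gain was at least 1 in 52 of the 116, against 2.59% of all genes, and -1 or less in 1, against 2.88%. Induction was larger in BicR for 45 and smaller for 0, and 10 responded alike. The median gain was 0.92, made of a median response of 1.18 in BicR and 0.21 in LNCaP, beside 0.01 for the gain of all genes. With ethanol in place of bicalutamide the median was 0.82.

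The list of secreted and membrane proteases also holds a phosphatase, ACPP. Of its 10 genes, 2 had a higher gain and 1 a lower one. Its median of 0.20 was the smallest of the 6 lists. KLK3 had 2601 CPM under DHT and 630.2 CPM under bicalutamide in BicR, against 5259 CPM under DHT and 979 CPM under bicalutamide in LNCaP. BicR was lower under both agents and its fold was also smaller, at 4.13-fold (95% interval 4.08 to 4.18) against 5.37-fold (95% interval 5.32 to 5.42) in LNCaP, which gives a gain of -0.38. Against ethanol the direction turned, with 3.87-fold in BicR, 3.75-fold in LNCaP and a gain of 0.05. KLK2, a trypsin-like kallikrein that activates the KLK3 protein, had 3047 CPM under DHT and 302 CPM under bicalutamide in BicR, against 637 CPM under DHT and 88.3 CPM under bicalutamide in LNCaP. It was higher in BicR under both agents, and its gain of 0.49 was well short of 2-fold. KLK4 had a gain of 0.28 and pepsinogen C, PGC, of 0.69. The protease gene ADAMTS1 had 1209 CPM under DHT and 365 CPM under bicalutamide in BicR, against 474 CPM under DHT and 360.5 CPM under bicalutamide in LNCaP, a gain of 1.33. ACPP, prostatic acid phosphatase, was the 1 listed gene with a lower gain. It had 36.2 CPM under DHT and 89.4 CPM under bicalutamide in BicR, against 42.8 CPM under DHT and 47.6 CPM under bicalutamide in LNCaP, a gain of -1.13. It was thus lower under DHT in BicR and almost level in LNCaP.

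In lipid and steroid metabolism 8 of 20 genes had a higher gain and 0 a lower one, with a median of 0.89. ACSL3, which activates fatty acids for lipid synthesis, had 1037 CPM under DHT and 179 CPM under bicalutamide in BicR, against 188 CPM under DHT and 166 CPM under bicalutamide in LNCaP. The gain was 2.34, and only BicR under DHT stood apart. ELOVL7, a fatty acid elongase, had 75.95 CPM under DHT and 14.9 CPM under bicalutamide in BicR, against 24.9 CPM under DHT and 23.4 CPM under bicalutamide in LNCaP, a gain of 2.19. DBI, an acyl-CoA binding protein, had 232 CPM under DHT and 51.1 CPM under bicalutamide in BicR, against 68.2 CPM under DHT and 46.5 CPM under bicalutamide in LNCaP, a gain of 1.62. Genes of cholesterol supply showed smaller gains, among them INSIG1 (1.17), a sterol-sensing regulator of the pathway, and IDI1 (1.10), an isomerase of the pathway. In the wider list of cholesterol synthesis and efflux 6 of 27 genes had a higher gain (22.2%, against 2.59% of all genes). A lower one was found in 2 (7.41%, against 2.88%), and the median was 0.22. HPGD, a prostaglandin dehydrogenase, was near the detection limit under bicalutamide, with 134 and 9 counts in BicR under DHT and bicalutamide, against 63 and 6 in LNCaP. The ratio of its folds was 1.73 (95% interval 0.483 to 5.70), an interval that holds 1.

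Membrane transport and metal handling had the highest median, 1.40, with 11 of 16 genes past a gain of 1 and 16 of 16 above 0. Beside STEAP4 and CHRNA2, SLC2A3, a glucose transporter, had 309 and 0 counts in BicR under DHT and bicalutamide, against 28 and 1 in LNCaP. It was at least 121-fold higher in BicR against a floor of 3 counts per library, and in LNCaP its fold was 26.9 (95% interval 4.45 to 1100.3). Its gain on the log2(CPM + 1) scale was 2.49, but the ratio of folds has a lower bound of 0.333 and no upper one, an interval that holds 1. ABCC4, an efflux pump for cyclic nucleotides and prostanoids, had 566 CPM under DHT and 83.3 CPM under bicalutamide in BicR, against 173 CPM under DHT and 119.6 CPM under bicalutamide in LNCaP, a gain of 2.22. SLC41A1, a magnesium transporter, had 558 CPM under DHT and 156 CPM under bicalutamide in BicR, against 139 CPM under DHT and 139 CPM under bicalutamide in LNCaP. LNCaP showed equal levels under both agents, and the gain was 1.83. SLC45A3, the prostein gene, had 1594 CPM under DHT and 225 CPM under bicalutamide in BicR, against 384 CPM under DHT and 85.0 CPM under bicalutamide in LNCaP. It responded at least 2-fold in both lines, with a gain of 0.66.

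Among transcription factors and their cofactors 5 of 17 had a higher gain, with a median of 0.51. ZBTB16, a transcriptional repressor, had 129 CPM under DHT and 20.9 CPM under bicalutamide in BicR, against 33.6 CPM under DHT and 12.4 CPM under bicalutamide in LNCaP, a gain of 1.20. ELL2, an elongation factor (1.12), ZBTB10 (1.18) and the coactivator ZMIZ1 (1.01) were the others beside FKBP5. FOXA1, a pioneer factor that opens chromatin for other factors, had a gain of 0.07, and of -0.17 against ethanol. Of 31 genes of androgen-dependent transcription, among them pioneer factors and coregulators, 0 had a higher gain and 1, the corepressor CTBP1 (-1.06), a lower one, which is near the 2.59% and 2.88% of all genes. With responses centred by gene length CTBP1 was at -0.97 and the list had 0 of either.

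Signalling proteins had a higher gain in 16 of 28 and a median of 1.18. NDRG1, a stress- and hypoxia-responsive protein, had 766 CPM under DHT and 149 CPM under bicalutamide in BicR, against 181 CPM under DHT and 117 CPM under bicalutamide in LNCaP. The gain was 1.73, with BicR at 5.15-fold (95% interval 5.02 to 5.28) and LNCaP at 1.55-fold (95% interval 1.501 to 1.60). LIFR, TNFAIP8 and IGF1R belong to this list. ERRFI1, an inhibitor of epidermal growth factor receptor signalling, had 299 CPM under DHT and 59.9 CPM under bicalutamide in BicR, against 85.1 CPM under DHT and 80.4 CPM under bicalutamide in LNCaP, a gain of 2.22. Glycan synthesis and the secretory pathway had a higher gain in 10 of 25 and a median of 0.87. GCNT1, which branches O-linked glycans, had 121 CPM under DHT and 21.3 CPM under bicalutamide in BicR, against 45.0 CPM under DHT and 33.3 CPM under bicalutamide in LNCaP, a gain of 2.03. ST6GALNAC1, a sialyltransferase of O-linked glycans, had 61.3 CPM under DHT and 4.60 CPM under bicalutamide in BicR, against 24.6 CPM under DHT and 5.27 CPM under bicalutamide in LNCaP. It was induced in both lines, with a gain of 1.45. The polyamine enzymes SMS (1.25) and ODC1 (1.20) and the amino sugar enzyme UAP1 (1.33) lay lower.

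**Figure D4:**
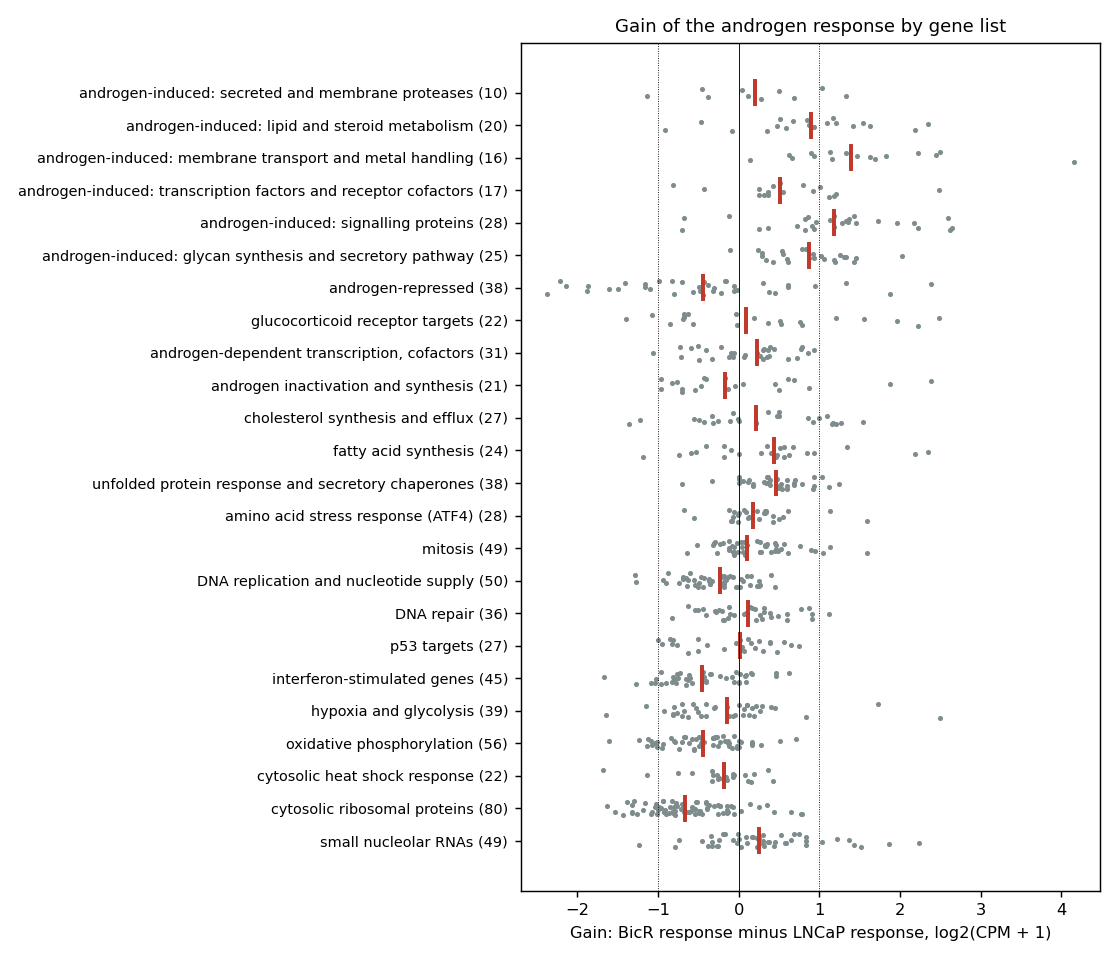
Each grey point is the gain of 1 measured gene, in log2(CPM + 1), in the list named on the left with its number of measured genes, the red bar is the list median, and dotted lines mark a 2-fold gain. Membrane transport (1.40) and signalling (1.18) have the highest medians of the androgen-induced lists, and cytosolic ribosomal proteins (-0.67) the lowest of the lists plotted, which leave out the cell type markers.

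Genes known as targets of the glucocorticoid response were split. Of 22 measured, 5 had a higher gain, namely FKBP5, ERRFI1, SGK1, SNAI2 and ZBTB16, and 2 a lower one, the metallothioneins MT2A (-1.39) and MT1F (-1.08), whose reads can be shared with family members. Against ethanol the gains of MT2A (0.30) and MT1F (0.13) were above 0. The 22 had a median gain of 0.08. Their higher and lower shares were 22.7% and 9.09%, against 2.59% and 2.88% of all genes. The higher ones include FKBP5 and ZBTB16, which are also on the androgen-induced lists and so are counted in both. SGK1, a kinase that regulates ion channels, had 14.4 CPM under DHT and 1.81 CPM under bicalutamide in BicR, against 1.71 CPM under DHT and 0.920 CPM under bicalutamide in LNCaP. BicR under DHT stood apart, with a gain of 1.96 and a ratio of folds of 4.28 (95% interval 2.76 to 6.58).

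Repression under DHT was larger in BicR for 70 genes, and 11 of these came from the list of 38 measured androgen-repressed genes, against 0.504% of all genes. This list too was drawn up with earlier results of these data known, so its direction is not independent evidence. In that list 11 had a lower gain (28.9%, against 2.88% of all genes) and 3 a higher one (7.89%, against 2.59%). Its median was -0.44. SI, the intestinal disaccharidase sucrase-isomaltase, had the lowest gain of all genes. It had 3.53 CPM under DHT and 42.9 CPM under bicalutamide in BicR, against 11.5 CPM under DHT and 22.4 CPM under bicalutamide in LNCaP, a gain of -2.37. It was lower under DHT in both lines, at 0.0822-fold (95% interval 0.0691 to 0.0972) in BicR and 0.514-fold (95% interval 0.466 to 0.567) in LNCaP. CBLN2, a secreted organiser of synapses, had 22.7 CPM under DHT and 153 CPM under bicalutamide in BicR, against 109 CPM under DHT and 146 CPM under bicalutamide in LNCaP, a gain of -2.28. DDC, the decarboxylase that makes dopamine and serotonin, had 8.32 CPM under DHT and 61.8 CPM under bicalutamide in BicR, against 52.6 CPM under DHT and 76.8 CPM under bicalutamide in LNCaP, a gain of -2.21. In both genes BicR under DHT was the lowest of the 4 libraries by a wide margin.

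ST7 had 76.9 CPM under DHT and 299.8 CPM under bicalutamide in BicR, against 254 CPM under DHT and 223 CPM under bicalutamide in LNCaP. It was lower under DHT in BicR and slightly higher in LNCaP, a gain of -2.14. ADRA2C, an adrenergic receptor, had 1.38 CPM under DHT and 5.84 CPM under bicalutamide in BicR, against 6.58 CPM under DHT and 3.74 CPM under bicalutamide in LNCaP, which gives a gain of -2.20 from low levels. Further listed genes with larger repression in BicR were the calcium kinase inhibitor CAMK2N1 (-1.87), the chemokine receptor CXCR7 (-1.61), angiotensinogen, AGT (-1.41), the hepatocyte growth factor receptor MET (-1.17) and butyrylcholinesterase, BCHE (-1.17). ABCA1, which exports cholesterol from cells, was 2-fold lower or more in both lines. It had 2.65 CPM under DHT and 32.7 CPM under bicalutamide in BicR, against 13.0 CPM under DHT and 49.3 CPM under bicalutamide in LNCaP, a gain of -1.36, and LRRN1 (-1.49) and the phospholipase PLD1 (-1.35) did the same. MAN1A1, a Golgi mannosidase, had 5.65 CPM under DHT and 18.8 CPM under bicalutamide in BicR, against 13.9 CPM under DHT and 29.3 CPM under bicalutamide in LNCaP. It was lower in both lines to a like extent, with a gain of -0.56.

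The UGT2B enzymes, which attach glucuronic acid to steroids and so inactivate androgens, differed in direction. UGT2B15 had 17.1 CPM under DHT and 44.3 CPM under bicalutamide in BicR, against 98.4 CPM under DHT and 139.9 CPM under bicalutamide in LNCaP, a gain of -0.82. UGT2B17 was low, at 0.238 CPM under DHT and 0.753 CPM under bicalutamide in BicR, against 1.73 CPM under DHT and 1.38 CPM under bicalutamide in LNCaP, with a gain of -0.70. UGT2B28 had 5.15 CPM under DHT and 0.407 CPM under bicalutamide in BicR, against 2.58 CPM under DHT and 3.28 CPM under bicalutamide in LNCaP, a gain of 2.39. UGT2B11 had 19.8 CPM under DHT and 4.62 CPM under bicalutamide in BicR, against 36.8 CPM under DHT and 36.5 CPM under bicalutamide in LNCaP, a gain of 1.88. UGT2B15 and UGT2B17 thus had lower levels under DHT in BicR, while UGT2B28 and UGT2B11 had higher ones there and little change in LNCaP. These genes are similar in sequence, so reads may have been shared between them. PAK1IP1 (1.33) was the third listed gene with a higher gain.

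HOXC9, a homeobox transcription factor, was the 1 gene that passed 2-fold in opposite directions. It had 4.17 CPM under DHT and 9.69 CPM under bicalutamide in BicR, against 23.2 CPM under DHT and 10.1 CPM under bicalutamide in LNCaP. Under bicalutamide the lines were nearly equal, and under DHT BicR was lower and LNCaP higher. DHT over bicalutamide was 0.431-fold (95% interval 0.360 to 0.513) in BicR and 2.31-fold (95% interval 2.08 to 2.56) in LNCaP, a gain of -2.18. With ethanol in place of bicalutamide its responses, -0.94 in BicR and 0.81 in LNCaP on the log2(CPM + 1) scale, both fell short of 2-fold, with a gain of -1.76, and 5 other genes were reversed. With responses centred by gene length, or on the RPKM scale, 0 genes were reversed.

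Genes with at least 2-fold induction in LNCaP alone were largely short. Of the 126 genes, 111 were in the shortest 25% of gene models, and their median length was 0.33 of the median gene, against 1.55 for genes with induction larger in BicR. C22orf41 had 9.68 CPM under DHT and 10.6 CPM under bicalutamide in BicR, against 43.0 CPM under DHT and 10.8 CPM under bicalutamide in LNCaP, a gain of -2.01. NUDT8, a mitochondrial hydrolase of the nudix family, had 25.3 CPM under DHT and 32.4 CPM under bicalutamide in BicR, against 90.8 CPM under DHT and 28.6 CPM under bicalutamide in LNCaP, a gain of -1.98. NME2, a nucleoside diphosphate kinase whose reads can be shared with its neighbour and relative NME1, had 4.32 CPM under DHT and 4.50 CPM under bicalutamide in BicR, against 18.9 CPM under DHT and 4.81 CPM under bicalutamide in LNCaP, a gain of -1.82. In these 3 genes LNCaP under DHT was the highest of the 4 libraries and the other 3 lay together. LNCaP under ethanol lay between LNCaP under DHT and under bicalutamide, with 29.7 CPM for C22orf41, 71.1 CPM for NUDT8 and 9.58 CPM for NME2. METRN, a secreted neurotrophic protein, had 31.9 CPM under DHT and 49.3 CPM under bicalutamide in BicR, against 168 CPM under DHT and 72.7 CPM under bicalutamide in LNCaP, a gain of -1.81, and C4orf48 had a gain of -1.83. TXNIP, the thioredoxin-binding protein that restrains glucose uptake, had 882 CPM under DHT and 1019 CPM under bicalutamide in BicR, against 261 CPM under DHT and 95.8 CPM under bicalutamide in LNCaP. Its gain was -1.65, and LNCaP under ethanol held 12.9 CPM.

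Of 80 cytosolic ribosomal protein genes, 17 had a lower gain, against 2.88% of all genes, and 0 a higher one, with a median of -0.67 from medians of 0.07 in BicR and 0.76 in LNCaP. Their summed level was 37602 and 36741 CPM in BicR under DHT and bicalutamide, against 63909 and 37359 CPM in LNCaP under DHT and bicalutamide. The LNCaP ethanol library, at 60896 CPM, lay with DHT and not with bicalutamide, and with ethanol in place of bicalutamide the median gain was -0.14. RPL13 had 507 CPM under DHT and 621 CPM under bicalutamide in BicR, against 1497 CPM under DHT and 588 CPM under bicalutamide in LNCaP, a gain of -1.64. RPS19 had 80.5 CPM under DHT and 73.2 CPM under bicalutamide in BicR, against 281 CPM under DHT and 87.8 CPM under bicalutamide in LNCaP, a gain of -1.53. Their median length was 0.25 of the median gene, and that of the oxidative phosphorylation genes 0.28. Many ribosomal protein genes have processed pseudogenes that can take or give reads. Of 56 genes of oxidative phosphorylation, 9 had a lower gain (16.1%, against 2.88% of all genes) and 0 a higher one, with a median of -0.44. The complex I subunit NDUFA3 (-1.61) and the ATP synthase subunit ATP5I (-1.23) were among the 9. With responses centred by gene length, 1 of the 56 had a lower and 1 a higher gain, with a median of -0.20. Of 45 interferon-stimulated genes 5 had a lower gain (11.1%, against 2.88% of all genes), led by the antiviral membrane proteins IFITM1 (-1.67) and IFITM3 (-1.27). In these 5 neither response reached 2-fold, since 0 of the 45 were 2-fold lower in BicR and 0 were 2-fold higher in LNCaP. The median of the 45 was -0.45.

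Genes with at least 2-fold repression in LNCaP alone were mostly long, and 6 of them were small nucleolar RNAs. Of the 71 genes, 56 were in the longest 25% of gene models, with a median length of 3.60 times the median gene. HCG11, a long noncoding RNA, had 65.9 CPM under DHT and 40.6 CPM under bicalutamide in BicR, against 27.3 CPM under DHT and 84.2 CPM under bicalutamide in LNCaP, the highest gain of this kind at 2.27. The other named members were small RNAs. SNORD116-29, a C/D box small nucleolar RNA, had 0.548 CPM under DHT and 1.08 CPM under bicalutamide in BicR, against 0.479 CPM under DHT and 8.32 CPM under bicalutamide in LNCaP, and LNCaP under ethanol held 25 counts against 434 under bicalutamide. RMRP, the RNA of the ribonuclease MRP, had 3.08 CPM under DHT and 2.40 CPM under bicalutamide in BicR, against 0.608 CPM under DHT and 4.16 CPM under bicalutamide in LNCaP, and LNCaP under ethanol held 0.280 CPM. For SNORD116-29 the LNCaP bicalutamide library stood apart from the others, and for RMRP the LNCaP DHT and ethanol libraries were the low ones. SNORD55 gave a gain of 1.86 and SNORD41 of 1.51. Of 49 small nucleolar RNAs, most of which lie in introns of host genes and cannot be told from them without strand and length information, 7 had a higher gain and 1 a lower one. These shares were 14.3% and 2.04%, against 2.59% and 2.88% of all genes. Against ethanol the gains of SNORD116-29, SNORD41, SNORD44, SNORD55, SNORD57 and SNORD79 were below 0. The list median was 0.26 with bicalutamide and -0.09 with ethanol.

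The LNCaP response was graded by gene length, and the BicR response was not. Over 20 bins of relative length the median LNCaP response was 0.40 in the shortest bin and -0.50 in the longest, while BicR gave 0.06 and -0.01. The median gain was -0.34 in the shortest bin and 0.55 in the longest. With ethanol in place of bicalutamide the LNCaP medians were 0.16 and -0.24. Centring the responses within these bins, a step chosen after seeing the data, kept 109 of the 132 genes with induction larger in BicR and 60 of the 70 with repression larger. It kept 29 of the 126 with induction smaller and 18 of the 71 with repression smaller. The median gain of the androgen-induced lists was then 0.86, and that of ribosomal proteins -0.39. Length moved with these results, and its part in them was not tested.

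**Figure D5:**
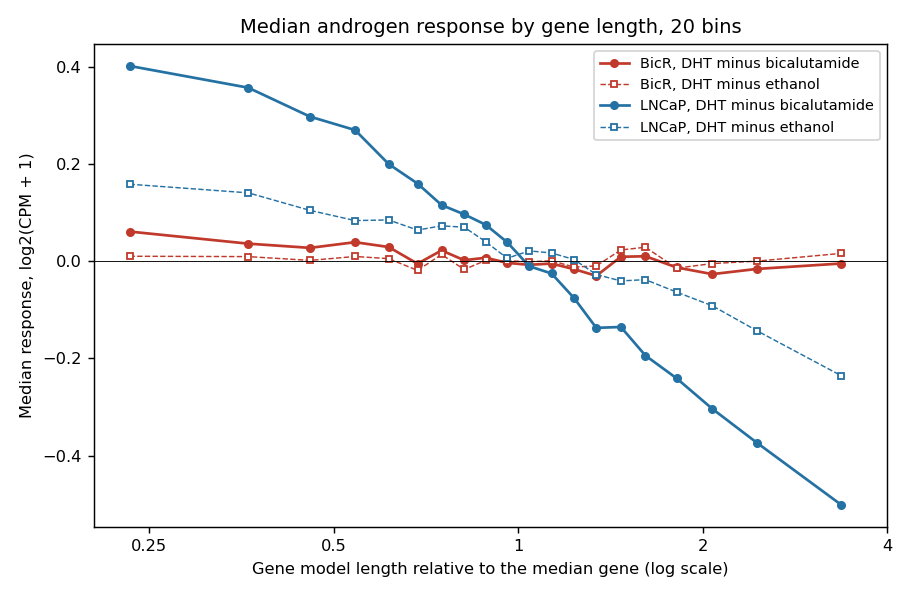
Each point is the median response in log2(CPM + 1) of the genes in 1 of 20 length bins, with gene model length relative to the median gene on a log x axis, for BicR (red) and LNCaP (blue) with bicalutamide (solid) or ethanol (dashed) as the androgen-free library. LNCaP is higher in short and lower in long genes against both libraries, 0.40 in the shortest and -0.50 in the longest bin with bicalutamide, while BicR stays between 0.06 and -0.03.

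The choice of androgen-free library separated the kinds in the same manner. With ethanol in place of bicalutamide, 96 of the 132 genes with induction larger in BicR were found again among 122, and 46 of the 70 with repression larger among 84. Of the 126 with induction smaller 8 were found again among 135, and of the 71 with repression smaller 5 among 118. FKBP5 had a gain of 2.04 against ethanol, STEAP4 of 4.24, NCAPD3 of 2.64 and SI of -2.85. C22orf41 had -0.43 and RPL13 -0.58, both nearer to 0 than with bicalutamide. The 2 versions share the DHT libraries, so they are not independent of each other.

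Genes of protein folding in the secretory pathway and of cell division differed between the versions. The 38 unfolded protein response and chaperone genes had a median gain of 0.47. The 3 higher ones were the stress sensor ERN1 (1.25), the disulfide isomerase AGR2 (1.12) and DNAJC3 (1.03). They made 7.89% of the list, against 2.59% of all genes, and 0 were lower. Against ethanol the median of the 38 genes was 1.51, with a median LNCaP response of -1.03 there. The 49 mitosis genes had a median of 0.10, with 3 higher, namely CENPN (1.59), CENPF (1.13) and ASPM (1.05). These made 6.12% of the list, against 2.59% of all genes. In CENPF and ASPM neither response to DHT over bicalutamide reached 2-fold, and against ethanol their gains were -1.35 and -1.12. The 49 genes had a median of -1.38 against ethanol, where the LNCaP median was 1.45. Both shifts came with the LNCaP ethanol library, and its part in them was not tested. DNA replication genes had 0 higher and 2 lower of 50, the licensing factor CDT1 (-1.29) and thymidine kinase, TK1 (-1.27), a share near the 2.88% of all genes, with a median of -0.24, and -0.63 against ethanol. The 36 DNA repair genes had a median of 0.11 against bicalutamide and -0.55 and the 28 amino acid stress genes of 0.18 against bicalutamide and 0.81 against ethanol. The 27 p53 targets had 0.02 against bicalutamide and 0.04, the 39 hypoxia and glycolysis genes -0.15 against bicalutamide and -0.22, the 24 fatty acid synthesis genes 0.43 against bicalutamide and 0.31, the 22 heat shock genes -0.18 against bicalutamide and -0.31 and the 21 androgen inactivation and synthesis genes -0.17 against bicalutamide and -0.27 against ethanol. Median gains of the measured cell type markers were 0.21 for the luminal, -0.41 for the basal, -0.57 for the neuroendocrine, -0.39 for the mesenchymal, -0.72 for the immune and 0.36 for the endothelial list, the basal, neuroendocrine, immune and endothelial ones over 2 to 5 genes each.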

How the data were processed

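Total RNA, isolated with ISOGEN, was sequenced on the SOLiD 3 Plus system per the labels' protocols. Per the file headers, the authors deposited whole counts for each gene beside RPKM, a value they scaled to gene length and depth. Reads belong to build hg19, according to the submitters' processing notes. For aligner, counter, annotation and strandedness the sources used here name nothing. The series' design text speaks of short RNA, while the table lists genes. With edgeR 4.0.16 in R 4.3.3, TMM factors were applied to the counts, expressed as CPM, and responses were computed on log2(CPM + 1) in Python 3.11.15. Relative length is counts divided by RPKM. The 1 library per group allows no test. Ratios of folds came from the 4 counts, scaled by effective library size, with exact conditional 95% intervals, or a normal approximation on the log scale for very high counts. The gain was checked on simulated counts. Promoters came from RefSeq (GRCh38.p14), matched by symbol. Genes were named by a rule: the 5 largest gains per class (for induction larger, 5 in BicR alone and 5 in both), reversed genes, the 3 strongest alike genes, the 3 largest per list and a fixed set including KLK3 and FKBP5; further list members were chosen after their values were seen, and not every gene picked is printed. The genes, lists and rules were chosen with earlier results of these data known. Alternatives were other scalings, pseudocounts, count minimums, RPKM, ethanol as the androgen-free library and length centring, the last added after seeing the data.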

Additional observations from a re-analysis of the deposited data

Results flagged for a closer look

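HOXC9 had the gain of -2.18 because its response to DHT ran in opposite directions in the lines, -1.05 in BicR and 1.13 in LNCaP on the log2(CPM + 1) scale. With 1 library per line and treatment the difference was not tested.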

How the results depend on the processing

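DESeq2 size factors, total counts as library size, no count minimum and a minimum of 100 counts kept each count of genes within 1.5 times its value and reversed 0 named genes, though total counts turned the LNCaP split to 158 higher and 185 lower. A pseudocount of 0.1 CPM gave 547 genes with a higher and 807 with a lower gain, 406 lower in BicR, 349 higher and 248 lower in LNCaP, 254 with repression larger, 193 with induction smaller and 129 with repression smaller in BicR, and 8 reversed. A pseudocount of 5 CPM gave 211 and 181 for the gain, 54 lower in BicR, 124 higher and 61 lower in LNCaP, 24, 74 and 35 for those classes, and 0 reversed. RPKM gave 171 genes with a higher gain, 120 higher and 74 lower in BicR, 136 higher and 66 lower in LNCaP, 73 with induction larger, 31 with repression larger and 32 with repression smaller, and 0 reversed. Ethanol in place of bicalutamide gave 118 with repression smaller and 5 reversed, and the gains of ASPM (-1.12), CENPF (-1.35), SNORD116-29 (-0.42), SNORD41 (-1.10) and SNORD55 (-0.31) changed sign, as did MT2A (0.30), MT1F (0.13) and the gains short of 2-fold of KLK3 (0.05) and FOXA1 (-0.17). The mean of both libraries gave 249 with a lower gain, 111 higher and 64 lower in LNCaP, 39 with induction smaller and 39 with repression smaller, and the gains of ASPM (-0.037) and CENPF (-0.11) changed sign. Centring by gene length gave 94 higher and 58 lower in LNCaP, 35 with induction smaller, 37 with repression smaller and 0 reversed. The cause of these shifts was not tested, beyond a larger pseudocount shrinking every difference. No paired analysis was possible because each line and treatment had 1 library. For the same reason no library could be left out, and culture-to-culture variation is unknown. Low genes such as HPGD and UGT2B17 are limited by counts, and the LNCaP bicalutamide library enters every LNCaP response.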
